A study of Mus musculus with 8 samples.

Results

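The 4 early growth response (EGR) genes of the mouse, Egr1, Egr2, Egr3 and Egr4, were examined for H3K27ac, the histone H3 acetylation (on lysine 27) found at promoters and enhancers in use. They were chosen by name, as 4 of 21887 protein-coding genes, and each locus was taken as the RefSeq gene interval with 50 kb on either side. All cells were mouse embryonic stem cells of line E14tg2a, strain background 129SV, that carried a stable cRAF-ErT2 cassette, which encodes a RAF kinase fused to a tamoxifen-responsive receptor domain so that 4-hydroxytamoxifen (4OHT) switches on ERK signalling. Every culture was grown with serum, LIF and the GSK3 inhibitor Chir99021 at 2 uM, and was moved 24 h before treatment into serum and LIF with the FGF receptor inhibitor PD173074 at 250 nM. The compared groups were cells given 250 nM 4OHT for 2 h and cells left untreated, each with an H3K27ac library of clone a and one of clone b. The labels name no vehicle control, so 4OHT itself and ERK activation cannot be told apart, and the labels do not say how the clones were derived.

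EGR proteins are zinc finger transcription factors that bind GC-rich sites, and their genes are textbook immediate-early genes, transcribed within minutes of growth factor signalling without new protein synthesis. ERK phosphorylates the ternary complex factors Elk1, Elk3 and Elk4, which sit with serum response factor at CArG boxes in the promoters of such genes, and the co-repressors Nab1 and Nab2 bind EGR proteins and restrain them. Egr1 is the most widely induced family member, Egr2 (Krox20) is known for hindbrain segments and peripheral myelin, Egr3 for muscle spindles and lymphocytes, and Egr4 for male germ cells.

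The promoter windows of Egr2 and Egr4 are printed, and peak cover of all but 1 of those shown differed between libraries. The promoter sequences used held no entry for Egr1 or Egr3, so neither gene was searched for motifs. RefSeq promoter sequences (build GRCm38.p6, 250 bases before a start site to 50 after it) matched 5 start sites of Egr2 and 1 of Egr4. Of the Egr2 windows 3 are shown, since the other two, with start sites at 67537870 and 67537930, overlap the third. Capitals mark CArG boxes and the letters TGACG, the core of a cAMP response element, which read CGTCA where they lie on the other strand. The windows span chr10:67535249-67535548, chr10:67537316-67537615 and chr10:67537619-67537918 on the plus strand, and chr6:85513540-85513839 on the minus strand.
Egr2, start site 67535499: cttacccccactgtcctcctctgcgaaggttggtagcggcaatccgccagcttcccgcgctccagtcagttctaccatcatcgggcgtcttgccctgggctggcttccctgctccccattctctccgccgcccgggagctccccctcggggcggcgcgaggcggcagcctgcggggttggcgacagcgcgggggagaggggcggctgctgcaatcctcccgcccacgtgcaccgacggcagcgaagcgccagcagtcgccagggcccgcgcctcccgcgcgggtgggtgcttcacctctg
Egr2, start site 67537566: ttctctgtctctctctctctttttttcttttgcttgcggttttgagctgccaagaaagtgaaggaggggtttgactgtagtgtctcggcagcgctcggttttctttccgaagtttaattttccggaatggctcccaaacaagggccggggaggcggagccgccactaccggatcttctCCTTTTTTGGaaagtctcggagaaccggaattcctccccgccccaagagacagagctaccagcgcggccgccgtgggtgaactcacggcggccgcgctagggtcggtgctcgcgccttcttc
Egr2, start site 67537869: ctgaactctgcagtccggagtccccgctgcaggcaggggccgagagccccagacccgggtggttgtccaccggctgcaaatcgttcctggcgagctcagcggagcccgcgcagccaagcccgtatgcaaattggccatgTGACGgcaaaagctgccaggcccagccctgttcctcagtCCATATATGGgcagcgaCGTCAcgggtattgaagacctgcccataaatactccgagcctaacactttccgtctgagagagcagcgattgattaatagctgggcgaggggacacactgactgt
Egr4, start site 85513589: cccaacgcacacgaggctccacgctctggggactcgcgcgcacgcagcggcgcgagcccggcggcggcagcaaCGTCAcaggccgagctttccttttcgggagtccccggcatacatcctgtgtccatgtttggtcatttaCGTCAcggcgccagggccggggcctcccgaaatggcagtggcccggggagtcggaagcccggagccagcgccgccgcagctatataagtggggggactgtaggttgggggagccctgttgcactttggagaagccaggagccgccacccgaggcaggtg

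The upstream Egr2 window held neither marked motif. Each of the other 2 Egr2 windows held 1 CArG box, at positions -72 to -63 from its own start site, and the third also held TGACG at -111 to -107 and, on the other strand, at -55 to -51. The Egr4 window held TGACG on the other strand at -177 to -173 and at -109 to -105, and no CArG box. Searched on both strands, a CArG box was in 1.63% of all 32851 RefSeq promoter windows and TGACG in 20.8%. The full cAMP response element TGACGTCA (1.79% of all windows), the EGR site GCGTGGGCG (0.612%) and the AP-1 site TGANTCA (7.81%) were in none of the 4 windows. The ETS core GGAA was in all 4, as in 96.0% of all windows, and 1 of its matches overlapped the CArG box of the second Egr2 window. These matches describe letters and not bound sites.

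H3K27ac peaks numbered 59170 and 62764 in 4OHT-treated clones a and b, covering 51.5 and 50.7 Mb, and 61203 and 63276 in untreated clones a and b, covering 53.1 and 50.4 Mb. Peaks were listed per library without read counts, so depth is unknown and a region missing from a list may lie just below the threshold of the peak caller. In these bulk samples more acetylated cells and more acetylation per cell cannot be told apart. The 5 stem cell markers checked (Pou5f1, Nanog, Sox2, Esrrb and Zfp42) had peaks at their loci in every library, 170.0 and 155 kb in sum in 4OHT clones a and b and 160.2 and 144 kb in untreated ones. They did not move together. Nanog held 32.5 and 28.1 kb in 4OHT cells and 38.85 and 32.43 kb in untreated cells (limma adjusted p = 0.336). With clone as a factor Nanog was called shorter (limma adjusted p = 0.00352), where 15.5% of all loci were. Pou5f1, Esrrb and Zfp42 were called longer there, where 22.7% were. Loci of 5 fibroblast markers held 11.1 and 14.5 kb in 4OHT cells and 8.41 and 9.29 kb in untreated cells. Col1a1 made up the largest part, with 7.08 and 7.49 kb in 4OHT cells and 6.09 and 6.14 kb in untreated cells (limma adjusted p = 0.281). Twist1 had 1.66 and 2.12 kb in 4OHT cells and 0 in both untreated libraries, and had too little covered length to be fitted. Col1a2, Thy1 and Pdgfrb overlapped between the groups. Loci of 4 primitive endoderm markers held 2.64 and 3.40 kb in 4OHT cells and 1.99 and 3.70 kb in untreated cells. The 3 neural progenitor markers held 8.98 and 6.64 kb in 4OHT cells and 10.1 and 8.53 kb in untreated cells, with Neurog2 at 0 in all. Of these Sox1 had 4.47 and 4.16 kb in 4OHT cells and 7.81 and 7.14 kb in untreated cells, and was called shorter (log2 change -0.73 ± 0.13, limma adjusted p = 0.0422). Pax6 had 4.51 and 2.48 kb in 4OHT cells and 2.28 and 1.39 kb in untreated cells (0.75 ± 0.33, adjusted p = 0.210). The part of other cell types in the EGR results was not tested.

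The first question was whether the EGR loci gained acetylated length when 4OHT was added. Covered length was higher at Egr3 and Egr2, differed by less than the clones' spread at Egr1, and was lower at Egr4 without passing the test. Of the 4 loci, 2 were called longer and 0 shorter (limma on log2(covered bp + 500), adjusted p under 0.05), where 4.00% of 16049 loci tested were called longer and 2.87% shorter. In both 4OHT libraries Egr2 and Egr3 lay above both untreated ones, as did 37.1% of all loci tested, and Egr4 lay below both, as did 21.7%. All 4 passed the filter of 1000 bp on the mean of the libraries. Egr4 did so through its untreated libraries alone, with a mean of 1.05 kb over all 4, and the filter therefore bears on its difference. The order of covered length was Egr3, Egr1, Egr2 and Egr4 in 4OHT cells. In untreated cells Egr1 led, Egr2 followed, and Egr4 and Egr3 came last with ranges that overlapped. As a share of the window Egr3 had 8.02% and 9.41% in 4OHT clones a and b, against 0.954% and 2.31% in untreated ones.

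**Figure D1:**
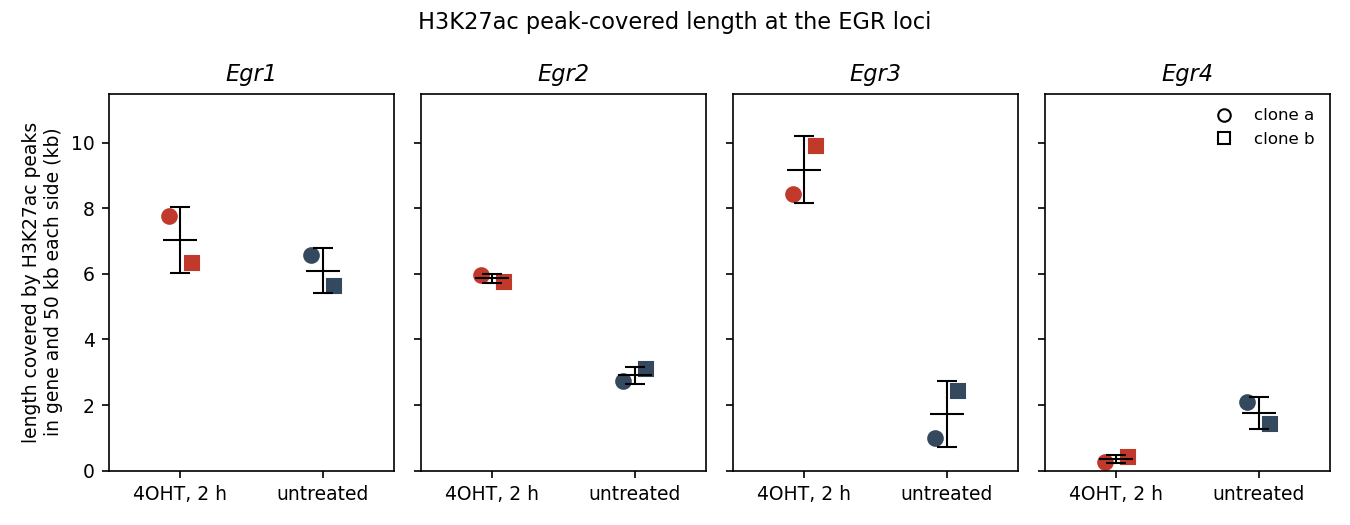
Length covered by H3K27ac peaks (kb) within each EGR gene and 50 kb on either side, in cells given 4OHT for 2 h (red, left) and untreated cells (dark, right). Circles are clone a and squares clone b, bars are the mean and SD of the 2 clones. The 4OHT libraries lie above the untreated ones at Egr2 and Egr3, below them at Egr4, and overlap them at Egr1.

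Egr3 had the largest increase of the 4. Its locus held 8.45 and 9.91 kb in 4OHT clones a and b (9.18 ± 1.03 kb, SD, n = 2), against 1.01 and 2.43 kb in untreated clones a and b (1.72 ± 1.01 kb). The groups lay far apart relative to the clones' spread. The log2 change was 2.20 ± 0.33 (SE, limma adjusted p = 0.0310), higher than at 99.6% of loci tested, and it was 2.57 within clone a and 1.83 within clone b. The log2 change was 2.31 without 4OHT clone a, 2.09 without 4OHT clone b, 1.72 without untreated clone a and 2.68 without untreated clone b. Such a fit leaves 1 library in a group and cannot show whether the call holds. With clone as a factor Egr3 was called longer (limma adjusted p = 0.0002875), in a fit that called 22.7% of loci longer.

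The added length at Egr3 lay partly on the gene and partly in a cluster within the neighbouring gene Bin3, which encodes a BAR domain adaptor protein. Egr3 spans chr14:70077317-70082613 (mm10). A region over its low-coordinate end, chr14:70077013-70080219, was covered for 2811 and 2912 bp in 4OHT clones a and b, against none in untreated clone a and 717 bp in untreated clone b. Next to it, 0.487 kb below the gene, chr14:70075020-70076830 was covered for 1811 and 1549 bp in 4OHT cells and for 0 and 504 bp in untreated cells. Untreated clone a thus listed no peak on or next to the gene, and untreated clone b listed short ones that 4OHT clone b replaced by broader ones. Of the gene interval 47.3% and 54.8% was covered in 4OHT clones a and b, against 0% and 13.5% in untreated ones.

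The gained regions of Egr3 were minor ones. A region 2.41 kb below the gene, chr14:70074233-70074906, was covered for 424 and 667 bp in 4OHT clones a and b and had no peak in untreated cells. A further gained region of 301 and 200 bp lay 19.9 kb below the gene, within Pebp4 and the long non-coding RNA gene Gm33524. The score percentiles of these peaks within their own lists were 24.5 and 14.0 for the nearer and 13.7 and 4.0 for the farther one, so they ranked low. Taking only the gene and 2 kb on either side, Egr3 had 4325 and 4276 bp in 4OHT cells and 0 and 961 bp in untreated cells (log2 change 2.49 ± 0.52, limma adjusted p = 0.0787). In that window 2.49% of loci were called longer without a clone term, and with clone as a factor 12.1%, Egr3 among them (adjusted p = 0.0108). There Egr3 passed the filter of 1000 bp on the mean through its 4OHT libraries alone, and the filter therefore bears on its difference.

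The largest distal change at Egr3 was 23.5 kb above the gene, inside Bin3. There chr14:70106160-70108333 was covered for 2088 and 2162 bp in 4OHT clones a and b, against 215 and 0 bp in untreated ones. Its peaks stood at the 86.4th and 85.3rd score percentile of the 4OHT lists, and the single untreated peak at the 39.0th. At the low-coordinate end of Bin3, chr14:70099492-70100952 was called in all 4 libraries, with 1014 and 1461 bp in 4OHT cells and 790 and 1213 bp in untreated cells. These lengths overlapped between the groups (log2 change 0.31 ± 0.32, limma adjusted p = 0.694). The score percentiles of that region were 86.2 and 86.4 in the 4OHT lists and 68.3 and 65.4 in the untreated lists. Another 3 regions within Bin3, of 300 to 334 bp, were listed in 4OHT clone b alone. The windows of Bin3 (log2 change 1.83 ± 0.31, limma adjusted p = 0.0387) and Pebp4 (1.39 ± 0.15, 0.0240) overlap that of Egr3 and share its peaks in part, so their calls are not independent of the Egr3 call.

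**Figure D2:**
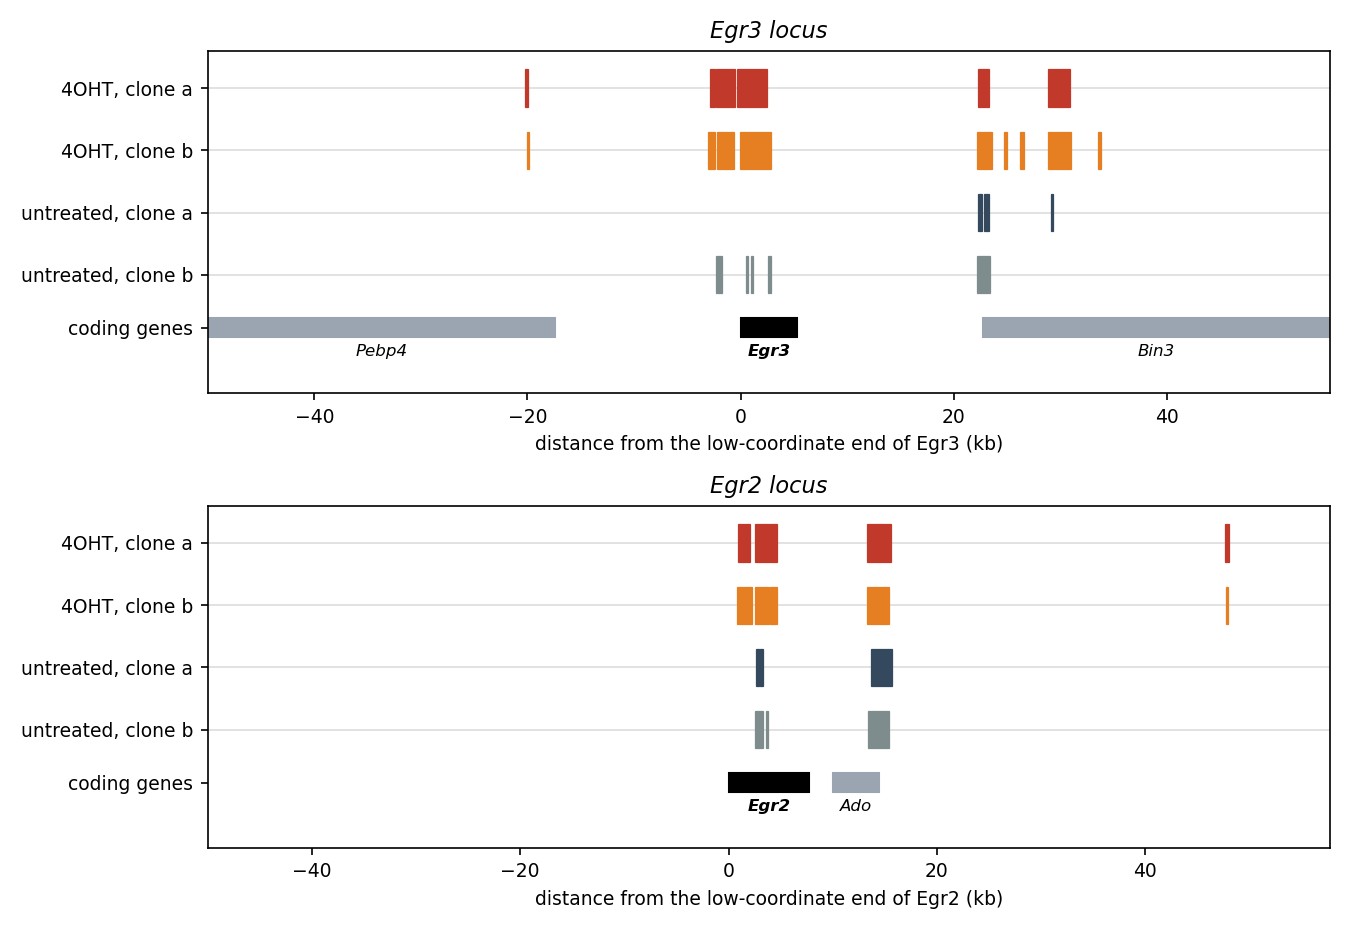
H3K27ac peaks at the Egr3 and Egr2 loci, drawn to scale. The x axis is the distance in kb from the low-coordinate end of the gene, each row of blocks is a library (4OHT clones a and b above untreated clones a and b), and the lowest row shows protein-coding genes. Broad blocks over Egr3 and within Bin3, and the blocks over Egr2, are longer in the 4OHT rows, while the block at Ado is alike in all rows.

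Egr2 had a longer covered length in 4OHT cells, and most of the difference lay on the gene itself. The locus held 5.97 and 5.77 kb in 4OHT clones a and b (5.87 ± 0.142 kb, SD, n = 2), against 2.72 and 3.09 kb in untreated clones a and b (2.91 ± 0.262 kb). Both differences exceeded the clones' spread, with a log2 change of 0.90 ± 0.14 (SE, limma adjusted p = 0.0342), higher than at 95.5% of loci tested. Within clone a the change was 1.00 and within clone b 0.80. The size held with any library left out (0.83 to 0.98). Such a fit leaves 1 library in a group and cannot show whether the call holds. With clone as a factor Egr2 was called longer (limma adjusted p = 0.00166), in a fit that called 22.7% of loci longer.

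A gained region and a widened region lay side by side over the Egr2 start sites of the promoter sequences used. Egr2 spans chr10:67534469-67542188 on the plus strand, and no library listed a peak at the low-coordinate end of that interval. The gained region chr10:67535301-67536737 was covered for 1121 and 1437 bp in 4OHT clones a and b and for 0 bp in untreated cells. It took in the upstream start site, whose printed window was covered for 170 and 248 bases in 4OHT clones a and b and for 0 in both untreated libraries. It also overlapped the high-coordinate end, which is the start, of the minus-strand long non-coding RNA gene Gm32255. Its peaks ranked at the 64.6th and 72.5th score percentile of their lists.

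The adjoining region, chr10:67536988-67539155, was called in all 4 libraries. It was covered for 2166 and 1997 bp in 4OHT clones a and b, against 652 and 1039 bp in untreated ones (log2 change 1.34 ± 0.27, limma over regions called in all 4 libraries, adjusted p = 0.136). That fit called 0 of 30131 regions. The second printed Egr2 window, with its CArG box, lay wholly under peaks in every library. The third window, with a CArG box and the TGACG letters, was covered for all 300 bases in both 4OHT libraries, against 169 and 188 bases in untreated clones a and b. Peaks of untreated cells thus reached over the low-coordinate part of that window, and those of 4OHT cells ran past its start site. Over all RefSeq promoter windows, 36.1% and 35.7% met a peak in 4OHT clones a and b, and 32.1% and 33.4% in untreated ones.

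With the window narrowed to 2 kb on either side, Egr2 had 3287 and 3434 bp in 4OHT cells and 652 and 1039 bp in untreated cells (log2 change 1.54 ± 0.18, limma adjusted p = 0.0316). That fit called 2.49% of loci longer. The untreated mean of Egr2 lay below the filter of 1000 bp there. Egr2 was thus fitted through its 4OHT libraries, and the filter bears on its difference. Its neighbour Ado, which encodes a thiol dioxygenase, carries a region 5.59 kb above Egr2, chr10:67547775-67550190, that was covered for 2254 and 2113 bp in 4OHT cells and 2069 and 2053 bp in untreated cells. That length hardly differed (log2 change 0.08 ± 0.11, limma adjusted p = 0.774). A small gained region 39.9 kb above Egr2, within the long non-coding RNA gene Gm32364, was covered for 425 and 218 bp in 4OHT cells. The window of Ado holds the same peaks as that of Egr2 and gave the same values.

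Egr1 was acetylated in untreated cells already, and its locus as a whole did not differ beyond the clones' spread. It held 7.76 and 6.33 kb in 4OHT clones a and b (7.04 ± 1.01 kb, SD, n = 2) and 6.58 and 5.63 kb in untreated clones a and b (6.10 ± 0.675 kb). The groups overlapped, with a log2 change of 0.19 ± 0.16 (SE, limma adjusted p = 0.496). Within clone a the change was 0.22 and within clone b 0.16, and with clone as a factor the locus was not called (limma adjusted p = 0.191). The change was largest with 10 and with 20 kb on either side, at 0.599 in both (limma adjusted p = 0.0949 and 0.0907). At 100 kb on either side the change was -0.041, and in the upper 50% of each list by score -0.012. It was 0.052 without 4OHT clone a, 0.327 without 4OHT clone b, 0.294 without untreated clone a and 0.085 without untreated clone b.

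On the Egr1 gene itself the peak was longer in 4OHT cells. Egr1 spans positions 34861207 to 34864956 of chromosome 18, and a single region over its low-coordinate end, from 34858952 to 34863886, was called in every library. It was covered for 4935 and 4760 bp in 4OHT clones a and b, against 2702 and 3392 bp in untreated ones. The peaks began at 34858952 and 34858995 in 4OHT clones a and b and at 34859231 and 34859242 in untreated ones, and they ended at 34863886 and 34863754 in 4OHT clones a and b, against 34861932 and 34862633 in untreated ones. The groups did not overlap, and 71.5% and 68.0% of the gene interval was covered in 4OHT cells, against 19.4% and 38.1% in untreated cells. The peaks ranked high in every list, at the 93.0th and 93.9th score percentile in 4OHT clones a and b and at the 94.1st and 94.9th in untreated ones.

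The longer Egr1 peak did not pass a test across regions. Among 30131 regions called in all 4 libraries, 27.3% were longer in both 4OHT libraries than in both untreated ones. The log2 change of the Egr1 region was 0.68 ± 0.14 (limma adjusted p = 0.132), in a fit that called 0% of these regions, although 5069 had an unadjusted p under 0.05. With clone as a factor 255 regions passed, and the Egr1 region did not (adjusted p = 0.0730). Within 2 kb of the gene the log2 change was 0.53 ± 0.15 (limma adjusted p = 0.133), and with clone as a factor Egr1 was among the 12.1% called longer (adjusted p = 0.0386).

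Away from the gene, the Egr1 window held regions that were shorter and regions that were longer in 4OHT cells. Of the distal regions the 2 called in all 4 libraries were tested, and neither passed. A pair of regions within Kdm3b, a histone demethylase gene, was shorter in 4OHT cells. The one 45.8 kb below Egr1 was covered for 884 and 591 bp in 4OHT clones a and b, against 1256 and 1154 bp in untreated ones (log2 change -0.74 ± 0.27, limma adjusted p = 0.293). The one 44.4 kb below was covered for 227 and 0 bp in 4OHT cells, against 1261 and 825 bp in untreated cells. Between 40 and 50 kb from the gene the covered length summed to 1111 and 591 bp in 4OHT cells, against 2844 and 1979 bp in untreated cells. A gained region of 415 and 208 bp lay 20.1 kb below Egr1, at the low-coordinate end of Reep2. A region in no annotated gene, 22.1 kb above Egr1, was covered for 1087 and 769 bp in 4OHT cells and 769 and 254 bp in untreated cells (log2 change 1.05 ± 0.61, limma adjusted p = 0.483). Etf1, a translation termination factor gene whose low-coordinate end lies inside the Egr1 window, had a log2 change of 0.21 ± 0.12 (limma adjusted p = 0.296).

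Egr4 had lower covered length in 4OHT cells and carried little acetylation in any library. Its locus held 0.262 and 0.429 kb in 4OHT clones a and b (0.346 ± 0.118 kb, SD, n = 2), against 2.10 and 1.42 kb in untreated clones a and b (1.76 ± 0.477 kb). The groups did not overlap, and the log2 change of -1.41 ± 0.30 (SE) just missed the threshold (limma adjusted p = 0.0540). Within clone a it was -1.77 and within clone b -1.05. With clone as a factor Egr4 was called shorter (adjusted p = 0.00634), in a fit that called 15.5% of loci shorter and 22.7% longer. Egr4 entered both fits through its untreated libraries alone, and the filter of 1000 bp therefore bears on both p-values. At 100 kb on either side the change was -0.027.

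Most of the Egr4 difference lay in a region away from the gene. Egr4 spans chr6:85511121-85513589 on the minus strand, and 8.62 kb above it, on its upstream side, chr6:85522213-85523506 was covered for 262 and 0 bp in 4OHT clones a and b, against 1294 and 1217 bp in untreated ones. Its peaks ranked at the 67.6th and 75.2nd score percentile of the untreated lists, and the short one in 4OHT clone a at the 18.2nd. A lost region beside it, chr6:85521582-85522028, was covered for 0 bp in both 4OHT libraries, while untreated clone a had 342 bp and untreated clone b 205 bp. The annotation places no gene under either region. Over the gene a single peak was listed, in 4OHT clone b, with 429 bp and a score percentile of 4.0. It covered the whole printed Egr4 window, and the other 3 libraries had 0 bases of that window under a peak. The windows of Cct7 and Fbxo41, which reach into that of Egr4, had log2 changes of 0.13 ± 0.24 and -0.09 ± 0.18 (limma adjusted p = 0.766 and 0.804).

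**Figure D3:**
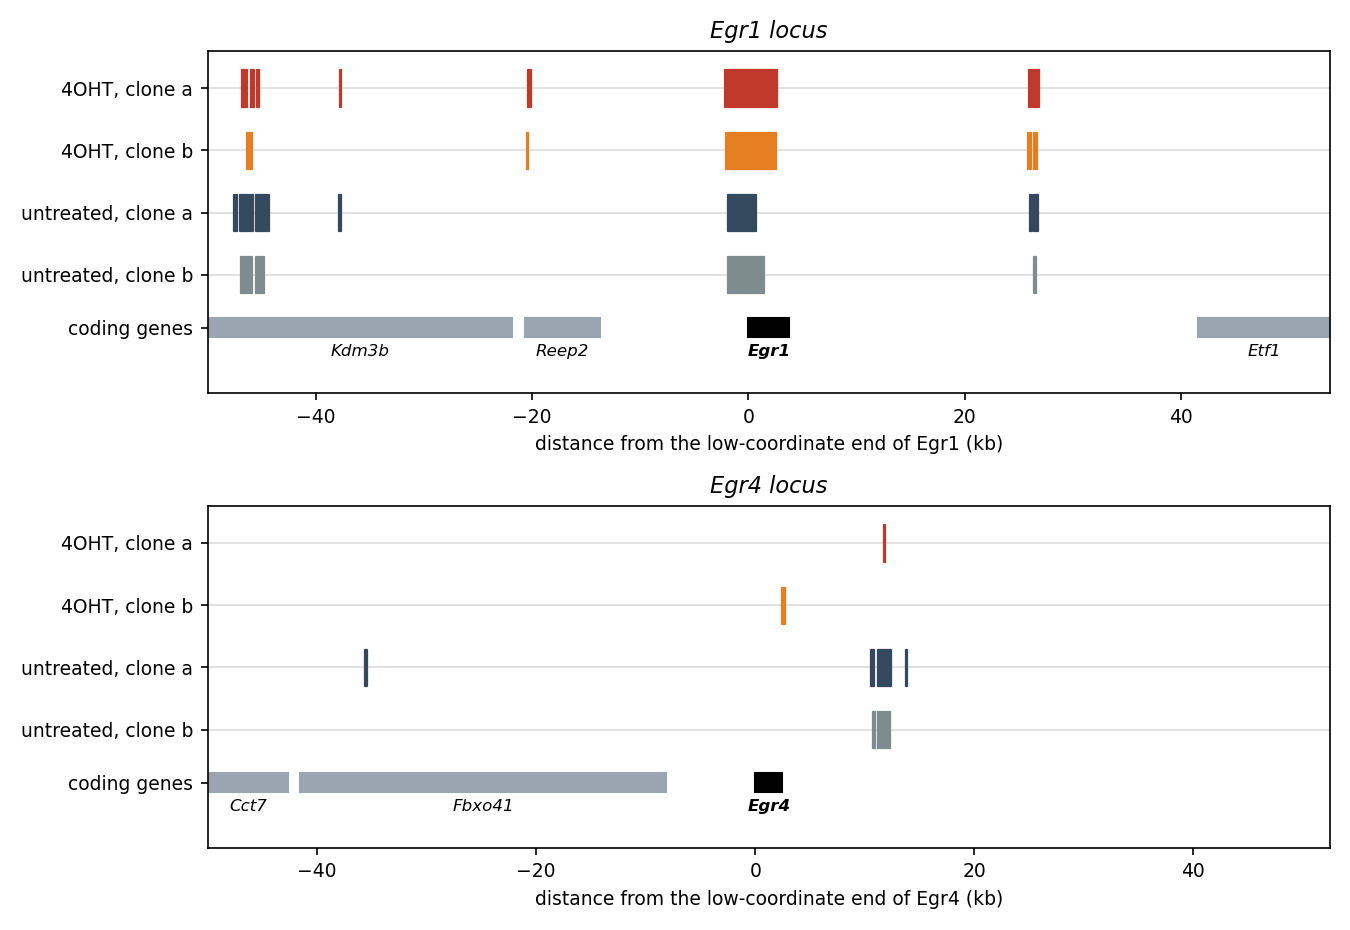
H3K27ac peaks at the Egr1 and Egr4 loci, drawn to scale. The x axis is the distance in kb from the low-coordinate end of the gene, each row of blocks is a library (4OHT clones a and b above untreated clones a and b), and the lowest row shows protein-coding genes. The block over Egr1 reaches further into the gene in both 4OHT rows, and the blocks above Egr4 are long in the untreated rows only.

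Counted as regions, the 4 loci held 25 union regions. Of these 5 were gained, meaning a peak in both 4OHT lists and in neither untreated list, and 1 was lost. Across the genome 6.20% of 82792 union regions were gained and 6.26% lost. Egr1 held 1 gained region, Egr2 and Egr3 held 2 each, and Egr4 held the lost one. Only 6 regions were called in all 4 libraries, 3 at Egr1, 2 at Egr2 and 1 at Egr3. Most of the length added at Egr3 lay in regions of neither class, because a single untreated library listed a short peak there.

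**Figure D4:**
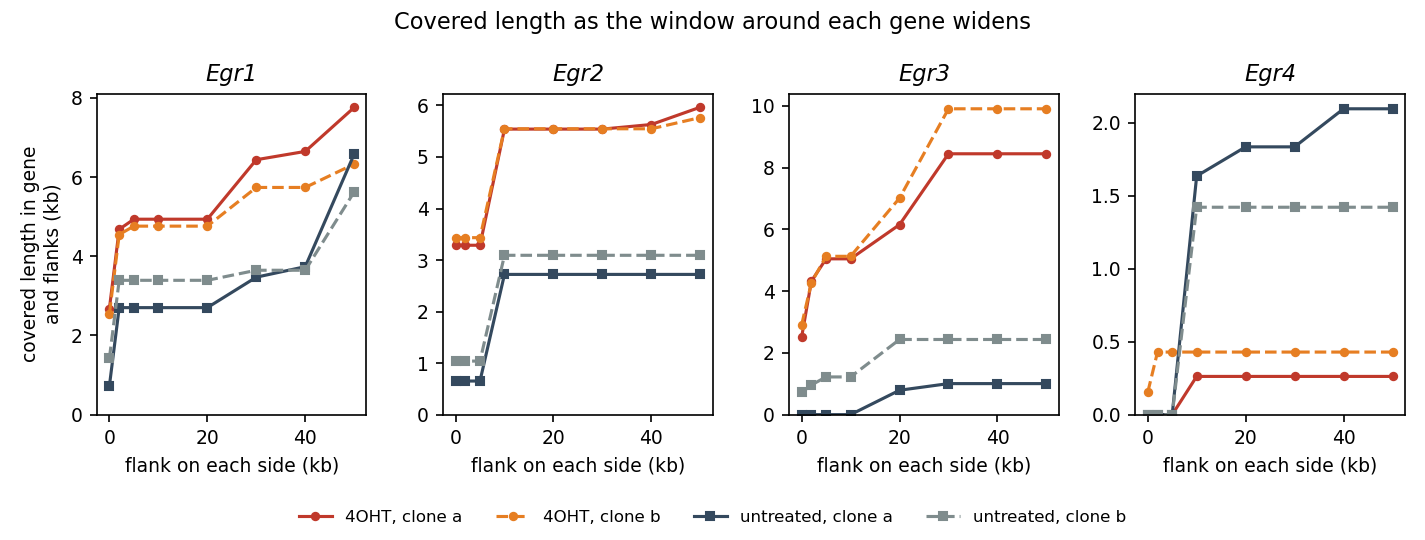
Covered length (kb, y axis) within each EGR gene and a flank of 0 to 50 kb on either side (x axis), by library. At Egr2 the 4OHT and untreated lines part at the gene and stay parallel, at Egr3 they part at the gene and again between 10 and 30 kb, at Egr1 they part near the gene and draw together beyond 40 kb, and at Egr4 the untreated lines rise at 10 kb.

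By distance, the Egr2 difference was present inside the gene, with 3287 and 3434 bp in 4OHT cells and 652 and 1039 bp in untreated cells, and stayed of that size out to 30 kb. For Egr3 the covered length reached 5046 and 5128 bp in 4OHT cells and 0 and 1221 bp in untreated cells within 10 kb. Within 30 kb it was 8449 and 9906 bp in 4OHT cells and 1005 and 2434 bp in untreated cells. Egr1 held 4935 and 4760 bp in 4OHT cells and 2702 and 3392 bp in untreated cells within 20 kb, and of the distances drawn the groups overlapped only at 50 kb.

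Loci on other chromosomes with similar covered lengths were named by the Euclidean distance of log2(covered bp + 500) over the 4 libraries. They were Dnajc2 (distance 0.0737) and Pithd1 (0.0789) for Egr1, and 2610528J11Rik (0.128) for Egr2. For Egr3 they were 4930568D16Rik (0.460) and Stom (0.471), and for Egr4 Tecta (0.352) and Fev (0.477). The loci named for Egr3 share a chromosome and had the same untreated lengths, so their windows may share peaks. Stom, for example, held 7.56 and 12.7 kb in 4OHT clones a and b and 0.878 and 1.96 kb in untreated ones. With 4 libraries this is a description of level and order only.

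The second question was how loci of EGR regulators and partners behaved. All 9 were tested, and 1 was called longer and 0 shorter, where 4.00% of all loci were called longer and 2.87% shorter. The median log2 change was 0.51, against 0.08 over all loci tested. Mrtfb (Mkl2 in the annotation), a co-activator of serum response factor, was the one called, with 6.81 and 5.55 kb in 4OHT clones a and b and 3.11 and 2.62 kb in untreated ones (log2 change 0.99 ± 0.17, limma adjusted p = 0.0393). With a library left out the log2 change was 0.85 to 1.13. Those fits leave 1 library in a group and cannot show whether the call holds. Nearer the gene the Mrtfb change was 0.54 within 20 kb (limma adjusted p = 0.139), 0.50 within 10 kb (0.133) and 0.31 within 2 kb (0.307). Mrtfa (Mkl1), its relative, had 2.06 and 1.35 kb in 4OHT cells and 1.37 and 0.863 kb in untreated cells (adjusted p = 0.367).

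Among the ternary complex factors, Elk3 held 13.1 and 11.8 kb in 4OHT clones a and b and 8.53 and 6.94 kb in untreated ones (log2 change 0.66 ± 0.15, limma adjusted p = 0.0638). Elk4 held 3.19 and 3.69 kb in 4OHT cells and 2.13 and 2.11 kb in untreated cells (0.58 ± 0.16, adjusted p = 0.0938). Elk1 held 7.45 and 5.89 kb in 4OHT cells and 9.11 and 6.50 kb in untreated cells (-0.20 ± 0.21, adjusted p = 0.578). Srf, the serum response factor gene, had 4.29 and 4.59 kb in 4OHT cells and 2.86 and 3.09 kb in untreated cells (0.51 ± 0.14, adjusted p = 0.0959). Its sign turned within 20 kb of the gene, where the change was -0.24 ± 0.20, so the Srf difference lay in the outer part of the window.

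The co-repressor gene Nab2 held 13.4 and 15.2 kb in 4OHT clones a and b and 9.22 and 11.1 kb in untreated ones (log2 change 0.47 ± 0.14, limma adjusted p = 0.110). Nab1 varied more between clones than between treatments, with 3.43 and 7.24 kb in 4OHT clones a and b and 1.71 and 4.93 kb in untreated ones (0.67 ± 0.52, adjusted p = 0.452). Wt1, a zinc finger relative of the EGR genes, had 1.54 and 1.35 kb in 4OHT cells and 1.11 and 1.04 kb in untreated cells (adjusted p = 0.423). In 6 of the 9 loci both 4OHT libraries lay above both untreated ones, beside the 37.1% of all loci given above. With clone as a factor 6 of 9 were called longer and 0 shorter, where 22.7% of all loci were. They were Srf (adjusted p = 0.0182), Elk3 (0.00143), Elk4 (0.0191), Mrtfb (0.000965), Nab1 (0.00804) and Nab2 (0.00312).

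Of 31 other immediate-early genes, all were tested, 3 were called longer and 0 shorter, beside 4.00% and 2.87% of all loci. The median log2 change of the list was 0.24, against 0.08 over all loci tested. Phlda1, a growth-factor-induced PH domain gene, had 13.0 and 15.7 kb in 4OHT clones a and b and 4.02 and 3.97 kb in untreated ones (log2 change 1.72 ± 0.14, limma adjusted p = 0.0240). Fosl2, an AP-1 subunit, had 3.90 and 6.03 kb in 4OHT cells and 1.05 and 1.34 kb in untreated cells (1.67 ± 0.25, adjusted p = 0.0303). Arc, a synaptic plasticity gene, had 38.9 and 36.1 kb in 4OHT cells and 25.0 and 22.2 kb in untreated cells (0.66 ± 0.11, adjusted p = 0.0388). With a library left out the log2 change ran from 0.572 to 0.741 at Arc, 1.385 to 1.954 at Fosl2 and 1.583 to 1.852 at Phlda1. Those fits leave 1 library in a group and cannot show whether the calls hold. With clone as a factor 15 of the 31 were called longer, and Btg2 alone shorter (log2 change -0.40, limma adjusted p = 0.0309), where 22.7% of all loci were called longer and 15.5% shorter. The log2 changes of this list ran from -0.43 at Atf3 to 1.72 at Phlda1. Btg2 and Atf3 were named after their values were seen.

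**Figure D5:**
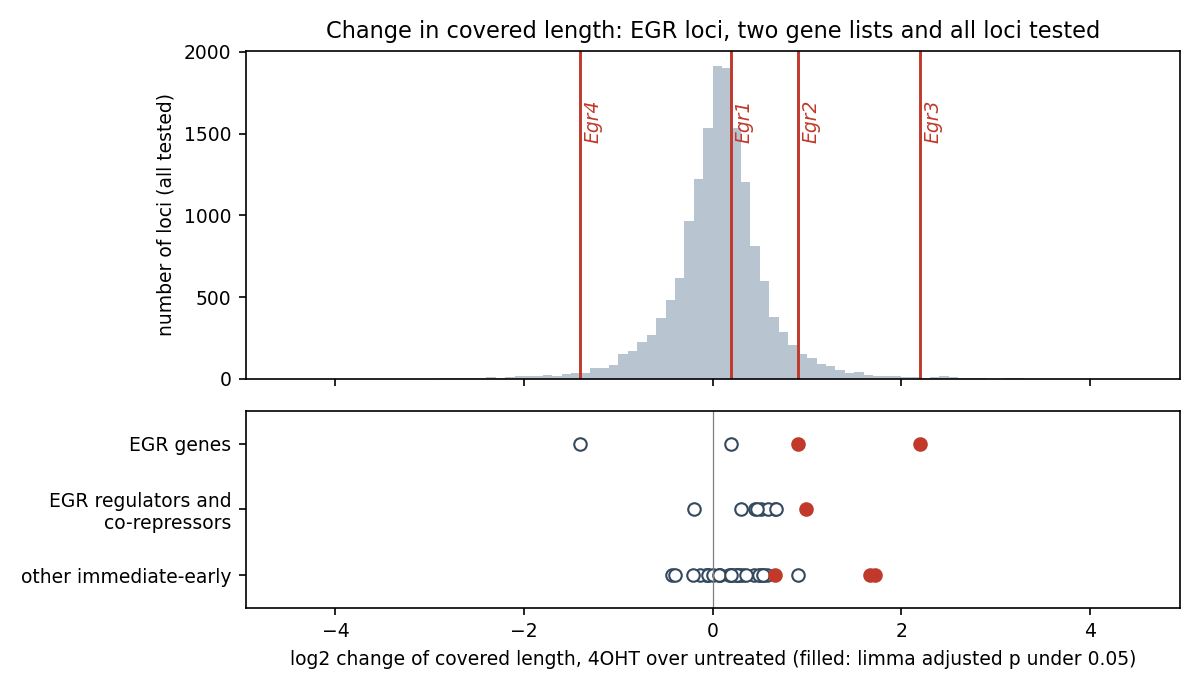
Distribution of the log2 change of covered length, 4OHT over untreated, over 16049 loci (upper panel, y axis the number of loci in bins of equal width), with the 4 EGR loci as red lines, and the same change for the EGR genes, their regulators and co-repressors, and other immediate-early genes (lower panel, 1 point a gene, filled where limma adjusted p was under 0.05). Egr3 at 2.20 and Egr4 at -1.41 lie in opposite tails, Egr2 at 0.90 lies to the right of most loci, and Egr1 at 0.19 lies near the middle.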

How the data were processed

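H3K27ac was profiled by chromatin immunoprecipitation and sequencing, and 4 libraries were used, clones a and b with and without 4OHT. The matching input libraries, 4 in number, are not used here. Bowtie2, bedtools, MACS2 and build mm10 are named in the submitters' processing notes, while versions, thresholds and the use of inputs are not stated there. Each deposited list holds the peaks of 1 library with a score per peak, the authors' own value on an unstated scale, which served for ranks and filters inside that list alone. Depth is unknown, so no interval for counting error was computed.

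Union regions joined peaks of any library that shared at least 1 bp. For each protein-coding gene (RefSeq table of GRCm38.p6, the coordinates of mm10) bases under peaks were summed over the gene plus flanks of 50 kb. Loci with a mean of at least 1000 bp were compared in 1 fit with limma 3.58.1 in R 4.3.3 on log2(covered bp + 500), with a mean-dependent prior variance, no clone term, and Benjamini-Hochberg adjustment at 0.05 over all loci. Log2 changes on that scale understate changes of short lengths. Neighbouring windows share peaks, and covered length moves with the total called per library. The fit was tested on simulated data. Score percentiles are ranks within a list and show no change between lists.

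Clone letters pair the libraries across treatments. The deviation of clone a from its group mean correlated at 0.611 over 16049 loci between 4OHT and untreated cells. Clone as a factor was the alternative fit. Its p-values rest on how far the change differs between 2 clones and on variance borrowed over loci. Without it they measure the spread between these clones, which may be technical.

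Named were the EGR genes, every regulator on the list, called members of the other immediate-early list, genes inside the windows, and the 2 loci nearest in covered length on other chromosomes, of which 1 is not reported here. Members and lists were chosen with earlier results of these data known. The window of 2 kb and the fit over single regions were added after seeing the data.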

Additional observations from a re-analysis of the deposited data

How the results depend on the processing

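Covered length depends on list length and on the unknown depth, and 2 clones per treatment leave calls dependent on single libraries. Across all loci 1103 were called. Other counts were 671 with a window of 10 kb, 411 with 2 kb, 321 in the upper 50% by score, 0 in the top 20000 peaks (2883 at unadjusted p under 0.05), and 312 for numbers of peaks. With clone as a replicate block they were 6125, 6561 when also scaled to total covered length, and 2006 with 2 kb. With a library left out they ran from 0, without 4OHT clone a (3225 at unadjusted p under 0.05), to 568. The log2 change of Egr1 was -0.041 with 100 kb and -0.012 in the upper 50% by score, and 0.53 with 2 kb and clone as a replicate block, and it ran from 0.052 (without 4OHT clone a) to 0.327 (without 4OHT clone b) with a library left out. Egr2 missed the threshold in the upper 50% (0.88), the top 20000 (0.84) and for numbers of peaks (0.75), and ran from 0.83 to 0.98 with a library left out. Egr3 missed it with 10 kb (2.59), 20 kb (1.86), 2 kb (2.49), the top 20000 (3.42) and numbers of peaks (0.84), and ran from 1.72 to 2.68 with a library left out. Egr4 passed with clone as a replicate block (-1.41; -1.40 when scaled). It had too little covered length to be fitted with 2, 10 or 20 kb, in both score settings, and without either untreated clone. Clone as a replicate block, with which clone-paired libraries are compared, ended no EGR call at 50 kb. Scaling to total covered length ended no EGR call and turned no sign. Srf was -0.24 with 2 kb, with and without the block, and with 10 and 20 kb. Elk1 was 0.031 in the top 20000 (and -0.43 to 0.028 with a library left out), and Wt1 was -0.76 with 100 kb and -0.42 for numbers of peaks. Gained regions at the EGR loci, 5 in all, numbered 8 with 50% coverage required, 3 with peaks within 1000 bp merged, 2 in the top 20000, and 5 to 9 with a library left out. Lost regions, 1 in all, numbered 2, 0 and 2 in these settings, 3 in the upper 50%, and 1 to 4 with a library left out. Of 82792 union regions across the genome 5130 were gained and 5185 lost. Requiring 50% coverage gave 6521 and 6709. Merging gave 2569 and 2508 of 46370, and the top 20000 gave 1859 and 1641 of 26831. In the upper 50%, 2529 of 41723 were lost. With a library left out 7101 to 13200 of 82792 were gained and 7171 to 12515 lost. The cause of these differences was not tested.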
